A study of Mus musculus with 6 samples.

Results

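The oxysterol guidance genes are the receptor gene Gpr183, the genes Ch25h and Cyp7b1 for the 2 enzymes that build its ligand, and Hsd3b7 for the enzyme that degrades it. These 4 of the 56691 genes of the deposited table were selected by gene symbol. They were chosen from earlier values of the same contrast, in which Gpr183 had one of the lowest log2 fold changes, so their differences between the media are given as a description with no test. Mouse wild-type bone marrow stromal cells (BMSCs), adherent marrow cells that can form bone, were cultured for 7 days towards osteoblasts. Both groups received 10% serum, 50 µg/ml ascorbic acid and 1.08 mg/ml beta-glycerophosphate, with a change of medium every 2 days. The conditioned medium group (3 libraries) also received medium taken from cultures of Hepa 1-6, a mouse hepatoma line, and the control medium group (3 libraries) received control medium. The labels do not say whether control medium had been held on another cell type, so factors of hepatoma cells and conditioning as such cannot be told apart. They also name no animal or culture per library, and p-values therefore measure only the spread between these libraries, which may be technical.

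GPR183, also called EBI2, is a Gi-coupled receptor on B cells, T cells, dendritic cells and myeloid cells that steers them along gradients of dihydroxylated cholesterol. CH25H hydroxylates the side chain of cholesterol, CYP7B1 adds a hydroxyl group to the sterol ring, and HSD3B7 oxidises the product to a form that the receptor does not recognise. In mouse bone, GPR183 on osteoclast precursors has been described as a guide towards bone surfaces, with ligand made by cells of the osteoblast lineage.

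Library totals lay between 18661629 and 21329475 counts. The first principal component of log2 CPM (counts scaled to the library total) held 88.4% of the variance and separated the media. No pair of replicates agreed within counting error (chi-square over degrees of freedom 2.45 to 12.1), and each library counts as 1 sample. The label of mesenchymal cells differentiated to osteoblasts fitted the collagen transcripts, with Col1a1 at 641 ± 29.4 FPKM in conditioned medium and 793 ± 39.8 FPKM in control medium (SD, n = 3 each), while the osteocalcin gene Bglap had 2 counts in each group. Macrophage transcripts were abundant in both groups, with the surface receptor gene Adgre1 (F4/80) at 585 ± 6.25 FPKM in conditioned medium and 457 ± 21.4 FPKM in control medium. The libraries thus hold RNA of more than 1 cell type, and in such bulk samples fewer cells of a type and less RNA per cell cannot be told apart. FPKM is scaled by exonic length and library total, which allows levels of different genes to be compared.

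The upstream bases are shown for Gpr183, with the largest difference, and for Ch25h, with the smallest SE among the 4 members. This pair is shown because Ch25h carries a cyclic AMP response element, a motif that factors of the ATF family bind, while Gpr183 does not. Both runs are the 250 bases before the RefSeq start in GRCm38.p6, on the minus strand, and capitals mark the motif. The Ch25h run is chr19:34475149-34475398 and the Gpr183 run is chr14:121965194-121965443.
Ch25h: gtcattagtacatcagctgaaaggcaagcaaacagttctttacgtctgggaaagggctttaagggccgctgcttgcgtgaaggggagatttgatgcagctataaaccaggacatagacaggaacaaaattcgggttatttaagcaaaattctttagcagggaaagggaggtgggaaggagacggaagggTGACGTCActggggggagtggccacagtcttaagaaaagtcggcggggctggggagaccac
Gpr183: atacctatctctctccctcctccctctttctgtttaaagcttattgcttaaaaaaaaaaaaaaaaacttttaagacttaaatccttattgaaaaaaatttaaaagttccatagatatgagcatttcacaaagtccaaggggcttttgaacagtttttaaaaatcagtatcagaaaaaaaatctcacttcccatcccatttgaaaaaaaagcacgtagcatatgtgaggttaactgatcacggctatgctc
The element TGACGTCA begins 61 bases and ends 54 bases before the start of Ch25h, and 1.55% of 32851 RefSeq promoters hold it in the same window. Searched on both strands, TGANTCA, the AP-1 site, and TTCNNNGAA, the STAT site, were found in neither run, and 6.75% and 7.02% of promoters hold them. None of the 3 motifs overlapped another. In the Hsd3b7 promoter 1 match to TTCNNNGAA was found, and 3 of the 4 members had an entry. A match of letters is a description and does not show that a factor binds.

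Gpr183 was the member with the largest difference, 11-fold lower in conditioned medium. It had 10, 17 and 6 counts in conditioned medium replicates 1 to 3, against 121, 121 and 117 in control medium. These correspond to 0.17, 0.31 and 0.10 FPKM in conditioned medium and 2.25, 2.06 and 1.95 FPKM in control medium. Every conditioned library thus lay far below every control library, and replicate 2 was the highest of the conditioned ones. The means were 0.193 ± 0.107 FPKM in conditioned medium and 2.09 ± 0.152 FPKM in control medium (SD, n = 3 each), with a log2 fold change of -3.46 ± 0.26 (SE). From the summed counts of 33 and 359, scaled by library totals, the level was 11.1-fold lower (95% exact counting interval 7.79 to 16.4). Of the 12153 tested genes 8 had a lower log2 fold change, a place that reflects how the members were chosen and is given as a description. Gpr183 passed the filter with a mean of 1.14 FPKM over the 6 libraries, and in conditioned medium alone it would not have.

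Ch25h was the most abundant member in both groups and was 2.12-fold higher in conditioned medium. It had 237, 193 and 234 counts in conditioned medium, against 101, 106 and 102 in control medium. The FPKM values were 8.21, 7.29 and 7.91 in conditioned medium and 3.90, 3.76 and 3.53 in control medium, with no overlap and little spread within either group. The means were 7.80 ± 0.469 FPKM in conditioned medium and 3.73 ± 0.187 FPKM in control medium (SD, n = 3 each), a log2 fold change of 1.08 ± 0.12 (SE).

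Cyp7b1, the next enzyme of ligand synthesis, was higher in conditioned medium by about the same factor, on far fewer counts. It had 38, 51 and 39 counts in conditioned medium, against 21, 16 and 25 in control medium. The levels were 0.84, 1.23 and 0.84 FPKM in conditioned medium and 0.52, 0.36 and 0.55 FPKM in control medium, and the groups did not overlap. The mean of 0.723 FPKM over the 6 libraries lay below the filter. Fitted without the filter, the log2 fold change was 1.04 ± 0.28 (SE), and the ratio of summed counts was 2.02 (95% exact counting interval 1.48 to 2.78).

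Hsd3b7, whose product removes the ligand, was the least abundant member in control medium. It had 8, 6 and 7 counts in conditioned medium, against 14, 12 and 9 in control medium. This is 0.14, 0.11 and 0.12 FPKM in conditioned medium and 0.27, 0.21 and 0.16 FPKM in control medium, where the lowest control library came close to the highest conditioned one. The ratio of summed counts was 0.586 (95% exact counting interval 0.324 to 1.04), an interval that includes equal levels, and the log2 fold change without the filter was -0.76 ± 0.54 (SE). Its counts carry a further limit. In the GENCODE M21 annotation, whose exonic lengths match the deposited ones for all 4 members, 62.0% of its 2769 exonic bases are also exonic in Gm49388, a gene on the same strand, and 62.4% in the antisense gene 9430064I24Rik. Gm49388 had 1 count in conditioned medium and 2 in control medium, and 9430064I24Rik had 36 and 16, so reads that fit several genes may be missing from Hsd3b7 or be assigned to its partner.

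**Figure D1:**
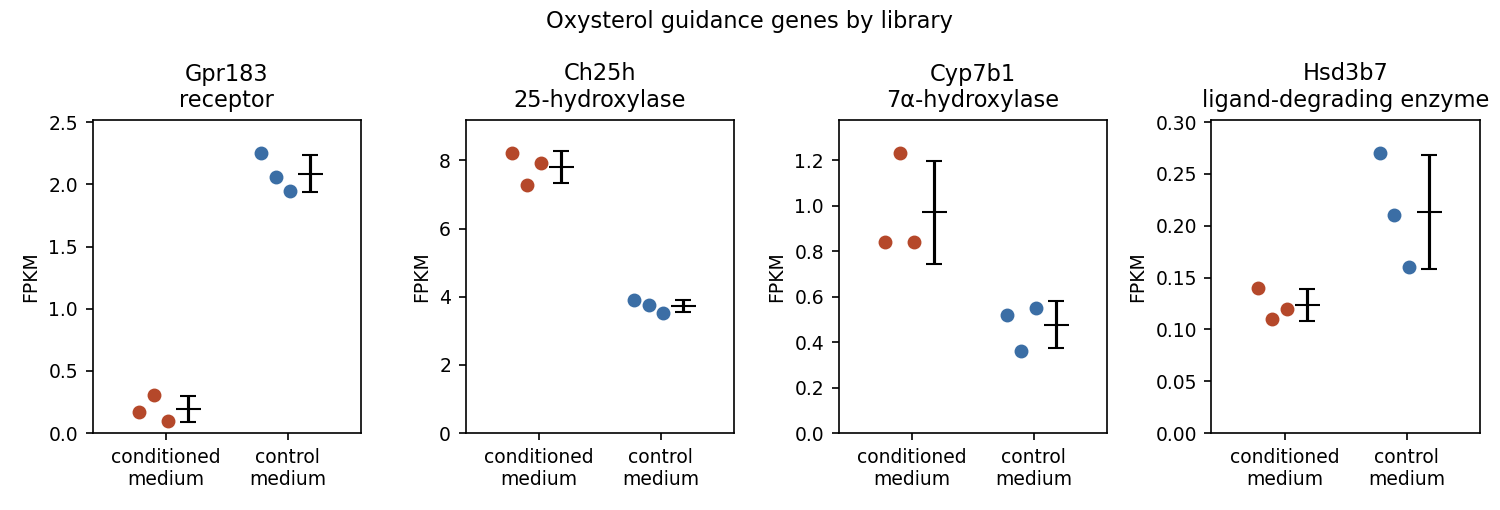
FPKM of the 4 oxysterol guidance genes in each library (points, n = 3 per group; the bar beside them is the mean with its SD), each gene on its own linear axis from 0. Gpr183 lies between 0.10 and 0.31 FPKM in conditioned medium and between 1.95 and 2.25 FPKM in control medium, while Ch25h and Cyp7b1 lie higher in conditioned medium.

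The groups did not overlap in FPKM for any of the 4 members, with Ch25h and Cyp7b1 higher and Gpr183 and Hsd3b7 lower in conditioned medium. Of the 29132 genes with any count, 29.4% did not overlap, and nothing is read from the members' count because this contrast chose them. The order of levels differed between the media. In conditioned medium Ch25h was followed by Cyp7b1, and Gpr183 (0.10 to 0.31 FPKM) and Hsd3b7 (0.11 to 0.14 FPKM) came last with overlapping ranges. In control medium the order was Ch25h, Gpr183, Cyp7b1 and Hsd3b7, and no neighbours in it overlapped. Within a library, the FPKM of Cyp7b1 was 6.00, 11.2 and 7.00 times that of Hsd3b7 in conditioned medium, and 1.93, 1.71 and 3.44 times in control medium. Hsd3b7 had at most 14 counts in any library, and some of its reads may be missing, so these ratios are imprecise. The FPKM of Ch25h was 48.3, 23.5 and 79.1 times that of Gpr183 in conditioned medium, and 1.73, 1.82 and 1.81 times in control medium. In conditioned medium Gpr183 had only 6 to 17 counts per library, so those ratios are imprecise too. The FPKM of Ch25h over that of Cyp7b1 lay between 5.93 and 9.77 in conditioned medium and between 6.42 and 10.4 in control medium, ranges that overlap.

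The positions of the genes bear on how their reads can be told apart, since counting by strand is not given. In GRCm39, Gpr183 lies on chromosome 14 at 122189963 to 122202607, minus strand, wholly inside the body of Ubac2 on the plus strand, with which it shares no exonic base in GENCODE M21. Ubac2, which encodes an endoplasmic reticulum protein, was at 11.1 FPKM in conditioned medium and 10.6 FPKM in control medium (log2 fold change 0.083 ± 0.072, edgeR adjusted p = 0.37). Gpr18, another G protein-coupled receptor gene 36770 bases away, was at 2.23 FPKM in conditioned medium and 1.63 FPKM in control medium (0.47 ± 0.19, edgeR adjusted p = 0.053, and 0.026 with limma on log2(FPKM + 1)). The large difference of Gpr183 was therefore not seen in the gene around it.

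Ch25h lies on chromosome 19 at 34451178 to 34452564, minus strand, and shares 159 of its 1387 exonic bases with the antisense gene Gm26902, which had 71 counts in conditioned medium and 39 in control medium. Lipa, 17154 bases away, encodes lysosomal acid lipase, which frees cholesterol from its esters. It fell to 41.3 FPKM in conditioned medium, against 109 FPKM in control medium (log2 fold change -1.38 ± 0.045, edgeR adjusted p = 3.6e-16), opposite in sign to its neighbour. Cyp7b1 lies on chromosome 3 at 18126114 to 18297502, minus strand, and Hsd3b7 on chromosome 7 at 127399776 to 127402974, plus strand. Near Hsd3b7, Stx4a, Fbxl19, Setd1a and Orai3 were not called. Of 7 tested genes within 50 kb of a member, Lipa alone was called, beside 45.9% of all 12153 tested genes called in either direction. With other settings 1 or 2 more were called, which were Gpr18 and Orai3.

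Markers of macrophages, myeloid cells that can carry Gpr183, moved in both directions. Of 15 markers, all tested, 10 fell and 4 rose. Their median log2 fold change was -0.53, against -0.0028 over all tested genes, where 22.9% were called lower and 23.0% called higher. Their summed FPKM lay between 6372 and 7078 in conditioned medium and between 8954 and 10354 in control medium, and no marker was at 0. Csf1r, the receptor gene for the macrophage growth factor, fell furthest (50.4 ± 1.95 FPKM in conditioned medium, against 130 ± 1.34 FPKM in control medium, log2 fold change -1.35 ± 0.042, edgeR adjusted p = 1.7e-16). Aif1, C1qa and C1qb, for a calcium-binding protein and 2 subunits of complement C1q, changed by -1.13, -0.93 and -0.82 on the log2 scale. Fcgr1, an antibody receptor gene, rose by 1.14, Adgre1 by 0.37 and Mrc1, the mannose receptor gene, by 0.11, all called. The call of Mrc1 was lost without any 1 conditioned library or control replicate 1 (adjusted p between 0.076 and 0.12) and with limma on log2(TPM + 1) (adjusted p = 0.25).

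Set against these markers in the same library, Gpr183 FPKM was 0.324%, 0.636% and 0.200% of Csf1r FPKM in conditioned medium, and 1.74%, 1.6% and 1.49% in control medium. Against Adgre1 FPKM it was 0.0291%, 0.0534% and 0.0169% in conditioned medium, and 0.520%, 0.441% and 0.413% in control medium. The log2 fold change of Gpr183, -3.46, thus lay below that of every macrophage marker of the list.

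Monocyte markers, from another myeloid type that can carry the receptor, were measured in both directions, and 1 of them changed by about as much as Gpr183. Of 6 markers 2 were tested. Treml4, a receptor gene of the Ly6C-low subset, fell to 0.593 ± 0.300 FPKM in conditioned medium, against 7.14 ± 0.663 FPKM in control medium (-3.55 ± 0.20, edgeR adjusted p = 5.3e-12), while Plac8 rose by 1.77 ± 0.053. Treml4, like Gpr183, passed the filter only through its level in control medium. Below the filter, Ccr2, the receptor gene for the chemokine CCL2, had 25 counts in conditioned medium and 102 in control medium, Ace had 43 and 93, and Ly6c2 had 57 and 1. The list summed to 76.1 to 84.2 FPKM in conditioned medium and 31.0 to 31.5 FPKM in control medium, most of it Plac8, and no marker was at 0 in all libraries.

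Markers of B cells and dendritic cells were mostly near 0, with exceptions. Of 8 B cell markers 2 were tested, and among the others Cd79a, Ms4a1, Pax5, Cr2 and Ighm were each at or below 0.20 FPKM in every library. Cd79b, a B cell receptor subunit gene, fell (0.790 ± 0.219 FPKM in conditioned medium, against 2.50 ± 0.225 FPKM in control medium, log2 fold change -1.65 ± 0.24, edgeR adjusted p = 7.7e-06), and Ebf1, which stromal cells also express, was not called. The summed B cell markers lay between 8.84 and 9.30 FPKM in conditioned medium and between 10.3 and 11.7 FPKM in control medium, most of it Ebf1. The Cd79b level in control medium was thus above that of Gpr183, and Cd79b passed the filter only through that group. Of 10 dendritic cell markers, Cd209a and Siglech had no count and Clec10a, a lectin gene that macrophages also express, was the single tested one. It rose by 1.04 ± 0.15 (edgeR adjusted p = 6.4e-06), and the sum of the list lay between 3.32 and 3.85 FPKM in conditioned medium and between 2.30 and 2.67 FPKM in control medium. Most of the sum was Clec10a, at 2.78 to 3.20 FPKM in conditioned medium and 1.20 to 1.71 FPKM in control medium. Itgax (CD11c), Zbtb46 and Clec9a were lower in conditioned medium without overlap. They had 34, 162 and 4 counts there, against 95, 217 and 13 in control medium. Batf3, Xcr1, Ccr7 and Flt3 overlapped between the groups. These had 19, 3, 1 and 0 counts in conditioned medium, against 19, 1, 2 and 3 in control medium. The part of these cell types in the difference of Gpr183 was not tested.

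Osteoclast markers did not share one direction. Of 10 markers 6 were tested, of which 3 rose and 2 fell. These calls, and those of osteoblast and stromal markers below, stand beside 22.9% called lower and 23.0% called higher over all tested genes. The list summed to 136 to 139 FPKM in conditioned medium and 81.3 to 85.7 FPKM in control medium, most of it Acp5 and Ctsk. No marker was at 0 in all libraries, but the untested ones were at or below 0.37 FPKM in every library. Calcr, Ocstamp, Dcstamp and Oscar had 19, 10, 23 and 28 counts in conditioned medium, against 16, 7, 11 and 34 in control medium. Mmp9 (gelatinase) and Acp5 (tartrate-resistant phosphatase) rose by 3.35 ± 0.11 and 1.64 ± 0.051, and Atp6v0d2, for a proton pump subunit, rose by 0.76 ± 0.14. Mmp9 passed the filter only through its level in conditioned medium. Tnfrsf11a, the gene for RANK on osteoclast precursors, fell to 8.02 ± 0.627 FPKM in conditioned medium, against 14.6 ± 0.521 FPKM in control medium (-0.85 ± 0.058, edgeR adjusted p = 8.8e-11), and Nfatc1 fell by 0.53 on the log2 scale. Of 10 osteoblast markers 6 were tested, of which 5 fell and Spp1, which macrophages also express, rose. Their sum was 1994 to 2037 FPKM in conditioned medium and 1116 to 1229 FPKM in control medium, most of it Spp1 and Col1a1. Of 9 stromal markers 8 were tested, 4 of which rose and 3 fell, with sums of 752 to 773 FPKM in conditioned medium and 745 to 779 FPKM in control medium. Which of these cells held the Ch25h and Cyp7b1 transcripts was not tested.

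**Figure D2:**
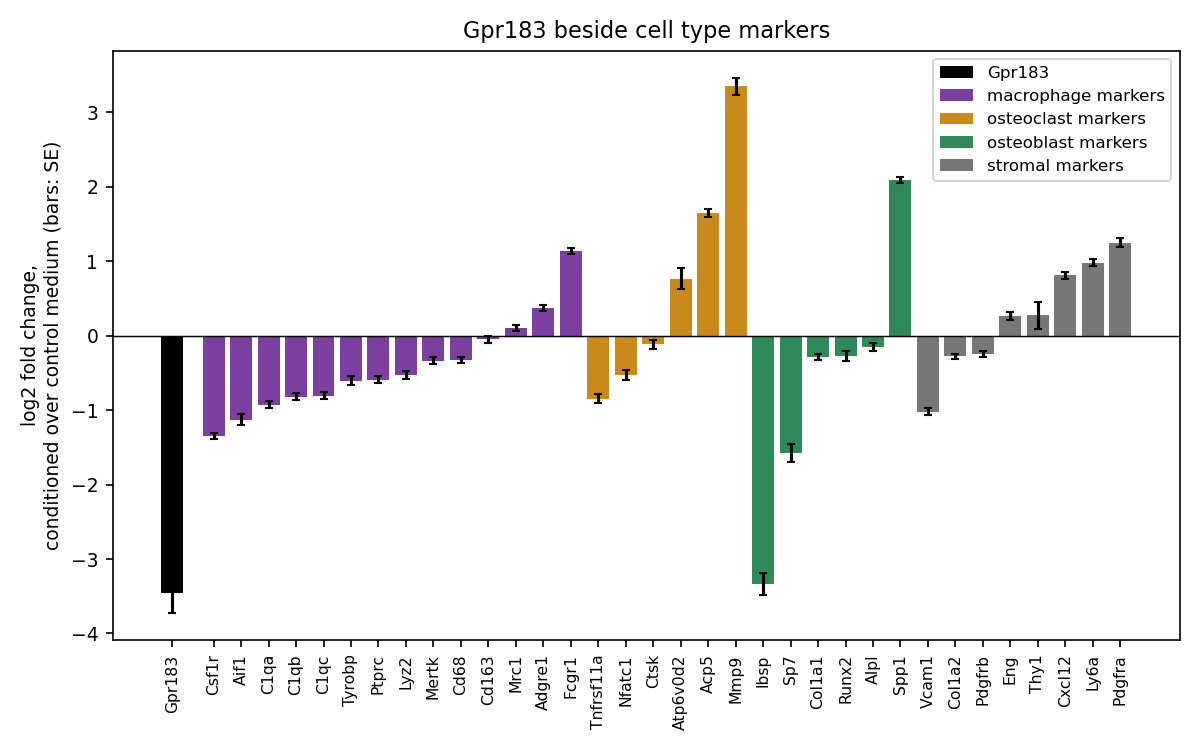
Log2 fold change of Gpr183 (black) and of tested markers of macrophages (1 of them not drawn), osteoclasts, osteoblasts and stromal cells, conditioned over control medium, with SE bars. Gpr183 at -3.46 lies below all macrophage markers, of which Csf1r is lowest at -1.35, and near the bone sialoprotein gene Ibsp at -3.33.

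Among other enzymes that make or clear oxysterols and late sterols, 22 genes, 11 were tested, of which 5 fell, 2 rose and 4 were not called, with a median log2 fold change of -0.32. Over all tested genes 22.9% were called lower and 23.0% higher, and the list as a whole was not tested against them. Cyp27a1, the mitochondrial enzyme that makes the side chain oxysterol 27-hydroxycholesterol, fell to 1.89 ± 0.384 FPKM in conditioned medium, against 3.69 ± 0.337 FPKM in control medium (-0.95 ± 0.16, edgeR adjusted p = 3.5e-05). Dhcr7, a reductase of the last steps of cholesterol synthesis, fell to 1.79 ± 0.0874 FPKM in conditioned medium, against 3.13 ± 0.266 FPKM in control medium (-0.79 ± 0.096, edgeR adjusted p = 6.3e-07). Against this direction H6pd, which supplies reducing power to the dehydrogenase HSD11B1, rose by 0.55 ± 0.045, and Soat1, which esterifies cholesterol, rose by 0.38 ± 0.040. Cyp39a1, a further oxysterol hydroxylase gene, was at 1.69 ± 0.231 FPKM in conditioned medium and 1.51 ± 0.190 FPKM in control medium and was not called (edgeR adjusted p = 0.40). Cyp7a1, Cyp8b1, Akr1d1 and Acox2, genes of bile acid synthesis in liver, had no count in any library.

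Among other sensors and carriers of oxysterols, 24 were tested, of which 12 fell, 3 rose and 9 were not called, with a median of -0.13, beside 22.9% called lower and 23.0% called higher over all tested genes. Insig1, which holds the SREBP complex in the endoplasmic reticulum when oxysterols bind it, fell to 5.97 ± 0.471 FPKM in conditioned medium, against 13.4 ± 0.780 FPKM in control medium (-1.15 ± 0.073, edgeR adjusted p = 2.9e-11). Stard4, a cholesterol carrier gene, fell by 1.16, and Srebf2, the gene of the master factor of cholesterol synthesis, fell by 0.92 on the log2 scale. Nr1h3, which encodes the oxysterol-activated nuclear receptor LXR alpha, fell to 7.67 ± 0.948 FPKM in conditioned medium, against 12.4 ± 0.414 FPKM in control medium (-0.68 ± 0.082, edgeR adjusted p = 6.8e-07). The 3 rises were Osbpl3, Stard5 and Npc2, lipid carriers, with 0.46, 0.31 and 0.21.

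Genes reported in mouse immune cells to act upstream of Ch25h or Gpr183 split between the directions. Of 14 tested genes 6 fell and 5 rose, with a median of -0.025, beside 45.9% called either way over all tested genes. With limma on log2(TPM + 1) 3 rose and 6 fell, where rises were 38.6% of all calls against 50.1% here, and 3 rose without conditioned replicate 2 or control replicate 1. Atf3, whose product represses Ch25h in mouse macrophages and binds elements like the one in capitals above, fell to 26.5 ± 0.769 FPKM in conditioned medium, against 39.9 ± 0.476 FPKM in control medium (-0.57 ± 0.049, edgeR adjusted p = 3.2e-09). Bcl6, a repressor that lowers Gpr183 in germinal centre B cells of mice, fell to 3.73 ± 0.136 FPKM in conditioned medium, against 7.32 ± 0.289 FPKM in control medium (-0.96 ± 0.061, edgeR adjusted p = 3.4e-11). Tyk2, a kinase of interferon receptors, fell by 0.35. Tlr4, the endotoxin receptor gene, rose by 0.53 ± 0.047, and Ifnar2, Jak1, Tlr3 and Stat2 of interferon and RNA sensing rose by 0.27, 0.24, 0.22 and 0.13. The calls of Tlr3 and Stat2 were lost with limma on log2(FPKM + 1) (adjusted p = 0.060 and 0.091) and without conditioned replicate 2 or control replicate 1 (adjusted p between 0.055 and 0.16), and that of Stat2 also without conditioned replicate 3 or control replicate 2 (adjusted p = 0.11 and 0.090). The interferon beta gene Ifnb1 had no count in any library. Whether any of these genes acted on the members was not tested.

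In a list of G protein signalling genes, chosen around Gi and shared by many receptors, 15 of 27 tested genes fell and 5 rose. Over all tested genes 22.9% were called lower and 23.0% called higher, and the median of the list was -0.19. The regulators of G protein signalling, which shorten signals of G proteins, held the largest changes. Which of them act on the signal of Gpr183 was not tested. Rgs2 fell to 2.04 ± 0.427 FPKM in conditioned medium, against 9.61 ± 0.361 FPKM in control medium (-2.21 ± 0.10, edgeR adjusted p = 2.0e-13), and Rgs10 and Rgs1 changed by -1.66 and -1.29. Rgs16 rose to 30.9 ± 1.13 FPKM in conditioned medium, against 9.81 ± 0.575 FPKM in control medium (1.67 ± 0.060, edgeR adjusted p = 2.0e-15). The other rises were small, at 0.34 for the migration GTPase gene Rac2, 0.28 for the receptor kinase gene Grk5, 0.19 for the Gi subunit gene Gnai3 and 0.19 for Gng12, and the call of Grk5 was lost with limma on log2(TPM + 1) (adjusted p = 0.066).

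Other receptors that guide leukocytes by lipids and small metabolites moved both ways. Of 24 genes 13 were tested, of which 6 rose, 5 fell and 2 were not called, with a median of 0.31, beside 45.9% called either way over all tested genes. Without conditioned replicate 2, 3 fell. Ltb4r1, the leukotriene B4 receptor gene, was at 3.76, 4.06 and 3.67 FPKM in conditioned medium and 0.08, 0.04 and 0.10 FPKM in control medium (log2 fold change 5.75 ± 0.34, edgeR adjusted p = 7.7e-12). It passed the filter only through its level in conditioned medium. The sphingosine 1-phosphate receptors, which steer osteoclast precursors between blood and bone in mice, did not share a direction. S1pr3 rose to 10.2 ± 0.543 FPKM in conditioned medium, against 1.60 ± 0.257 FPKM in control medium (2.69 ± 0.093, edgeR adjusted p = 1.1e-15), and S1pr1 rose to 25.5 ± 1.83 FPKM in conditioned medium, against 15.1 ± 0.838 FPKM in control medium. S1pr2 fell to 5.08 ± 0.284 FPKM in conditioned medium, against 8.08 ± 0.296 FPKM in control medium (-0.65 ± 0.058, edgeR adjusted p = 5.6e-09). Gpr35 rose by 1.58 on the log2 scale. Lpar6, Lpar5, Cysltr1 and Ptafr, receptors of lysophosphatidic acid, cysteinyl leukotrienes and platelet-activating factor, changed by -0.53, -0.54, -0.31 and -0.23. The call of Lpar5 was lost without conditioned replicate 1 or 2 or control replicate 1 (adjusted p between 0.060 and 0.081), and that of Ptafr without conditioned replicate 2 or control replicate 2 (adjusted p = 0.086 and 0.11).

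**Figure D3:**
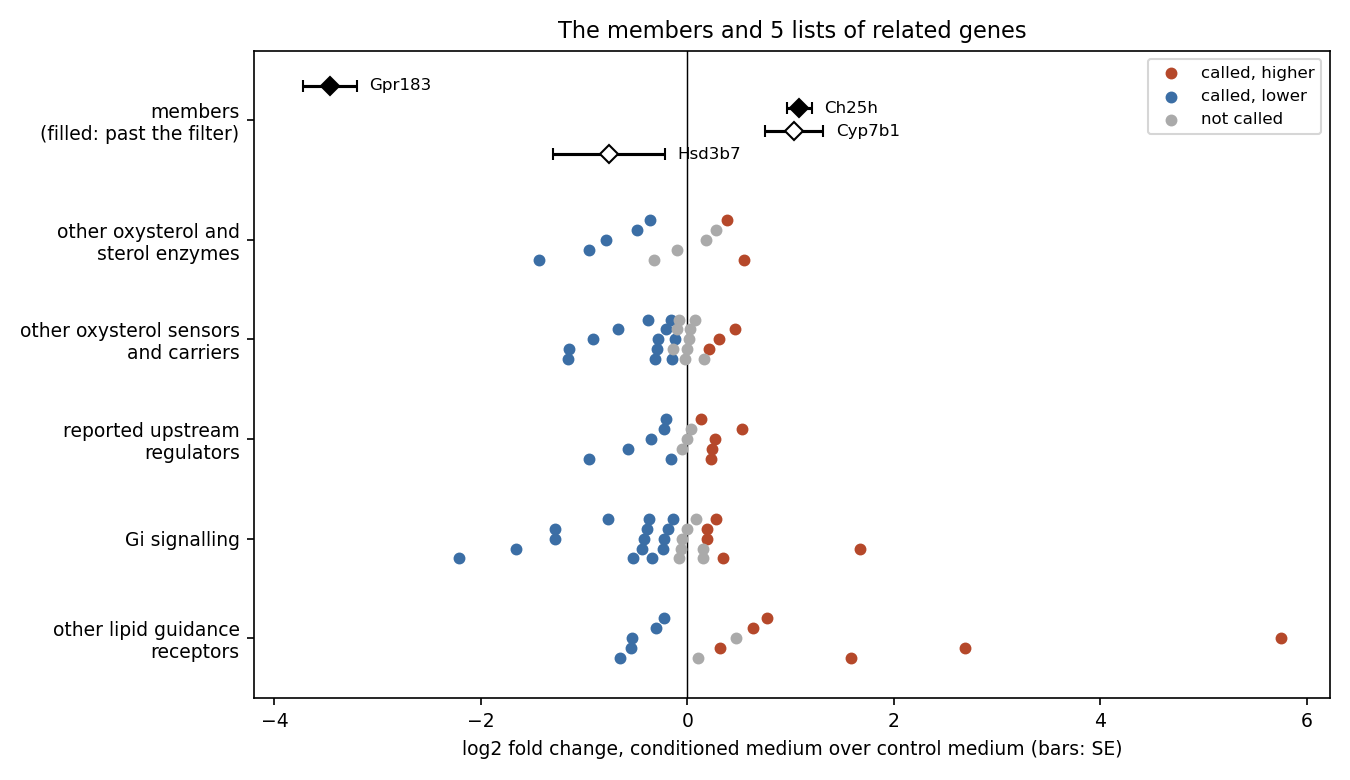
Log2 fold change, conditioned over control medium, of the 4 members (diamonds with SE; open where the mean lay below 1 FPKM) and of the tested genes of 5 lists (1 point per gene; colour shows the edgeR call, vertical scatter within a row has no meaning). Gpr183 at -3.46 lies below all points of the lists, of which Rgs2 is lowest at -2.21, and Ltb4r1 is highest at 5.75.

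Likeness to a member was measured as the root mean square difference of log2(CPM + 1), centred on its mean, over the 6 libraries. The genes nearest to Gpr183 were Gsta3 (glutathione S-transferase), Cxcr4 (the receptor gene for CXCL12) and Rflnb (refilin B), with differences of 0.125, 0.160 and 0.164. Cxcr4 was at 2.44, 2.17 and 1.87 FPKM in conditioned medium and 12.4, 11.2 and 12.2 FPKM in control medium. The added 1 compresses low counts, and on the fitted scale Gsta3, Cxcr4 and Rflnb changed by -2.36, -2.45 and -2.10, less than the -3.46 of Gpr183. The genes nearest to Ch25h were Ly6a (Sca-1), Gas1 (a growth arrest gene) and Pygl (glycogen phosphorylase), with differences of 0.0302, 0.0383 and 0.0445. Ly6a was at 136, 129 and 135 FPKM in conditioned medium and 71.5, 67.5 and 66.8 FPKM in control medium. Prickle2, Rpia and Ntn4 were nearest to Cyp7b1 (0.0756, 0.0756 and 0.0894), and Nop53, Siah1a and Oaz1 to Hsd3b7 (0.0132, 0.0159 and 0.0214), where the few counts of the member leave little of its difference on this scale.

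**Figure D4:**
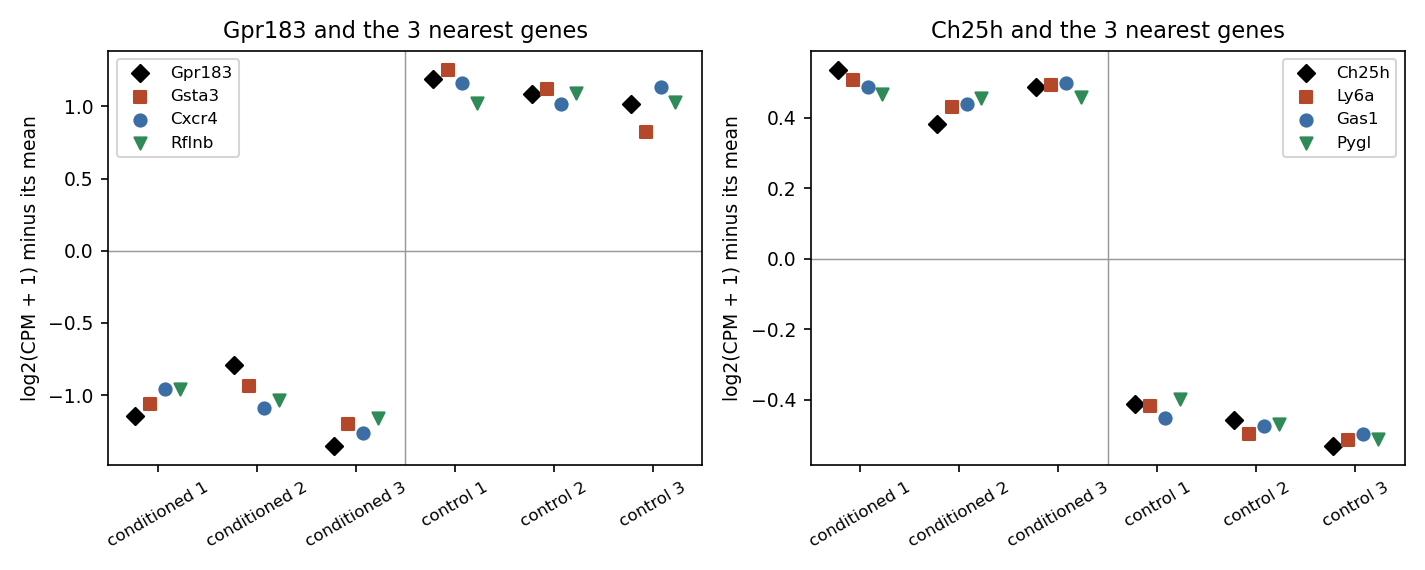
Log2(CPM + 1) minus the gene's mean over the 6 libraries, for Gpr183 (left) and Ch25h (right) with the 3 genes of nearest pattern, 1 point per gene and library. Gpr183 and its nearest genes lie below 0 in all conditioned libraries and above 0 in all control libraries, and Ch25h and its nearest genes the other way.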

How the data were processed

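RNA of 6 libraries of differentiating mouse bone marrow stromal cells was sequenced. The authors deposited 1 table with raw counts and FPKM values (counts scaled by exonic length and library total) per gene, per the file headers. The deposited FPKM equalled count over exonic length and library total in 100% of entries, within 0.006 FPKM. Tools listed in the submitters' processing notes, with no role or order, are HTSeq 0.6.1, HISAT2 2.0.1, cutadapt 1.9.1 and DESeq2, and the build is GRCm39. No source used here gives strand-aware counting.

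Genes averaging 1 FPKM or more across the 6 libraries were tested on their counts with edgeR 4.0.16 (R 4.3.3), using TMM factors, the quasi-likelihood test and Benjamini-Hochberg adjustment over all tested genes. The threshold for a call was an adjusted p of 0.05. Each SE is the unshrunk log2 fold change divided by the root of its F statistic. Members below the filter were taken from the same fit without it and have no test. Library totals lay between 18661629 and 21329475 counts, and counting intervals cover counting error only. The script was tested on simulated data. Alternatives were DESeq2 1.42.0, RLE factors, 2 other filters, limma 3.58.1 on log2 values, a replicate block and leaving out each library. Limma on TPM was added after the data had been seen.

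The members, the 5 pathway lists and the 10 marker lists were chosen with earlier results of these data known. The text names all members, and in each list up to 4 called genes with the largest change and genes called against the majority. It also names genes within 50 kb of a member and, for each member, the 3 genes with the nearest pattern. Stard1 and Oxer1, 2 of the list symbols, had no match in the table. Values of a few list genes are not reported here, though the list counts include them.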

Additional observations from a re-analysis of the deposited data

How the results depend on the processing

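The directions of the 4 members held under every alternative run. The groups did not overlap in FPKM for any member, so runs on the same libraries could hardly reverse a direction. No support is read from this. Other factors, filters, DESeq2 and the replicate block moved their log2 fold changes by less than the spread between replicates. With limma on log2(FPKM + 1) they were -1.37 for Gpr183, 0.90 for Ch25h, 0.41 for Cyp7b1 and -0.11 for Hsd3b7, and with limma on log2(TPM + 1) they were -2.42, 0.98, 0.70 and -0.31, since the added 1 compresses low values. With limma on log2(FPKM + 0.1), Gpr183 was at -2.96 and Hsd3b7 at -0.48. Leaving out 1 library gave -3.97 to -3.13 for Gpr183, 1.05 to 1.13 for Ch25h, 0.84 to 1.16 for Cyp7b1 and -0.94 to -0.56 for Hsd3b7. Over all genes 5578 were called, against 5028 with DESeq2, 6331 without a filter, 5079 with limma on log2(TPM + 1) and 4769 to 5873 without 1 library. Calls within 50 kb of a member numbered 2 with a minimum mean of 0.1 FPKM, with limma on log2(FPKM + 1) or log2(FPKM + 0.1) and with the replicate block, 3 with limma on log2(TPM + 1), and 1 to 2 without 1 library. Total calls of each of the 5 pathway lists stayed within 1.5 times, but rises of the upstream regulators numbered 3, against 5, with all limma settings and without conditioned replicate 2 or control replicate 1. Falls of the lipid guidance receptors numbered 3, against 5, without conditioned replicate 2. Setd1a, not called, reversed to -0.0049 with limma on log2(TPM + 1). Deviations of same-numbered libraries from their group means had correlations of -0.0033, 0.067 and 0.080. Those of differently numbered libraries lay between -0.086 and 0.017. The labels give no pairing, and with 3 libraries per group these values cannot exclude one. With the replicate block 5662 genes were called. Counts of 33 for Gpr183 and 21 for Hsd3b7 in conditioned medium limit what can be said of differences among those libraries.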

Other observations

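The remaining marker lists held few measured genes. Of 8 neutrophil markers Camp alone was tested and rose by 2.73 ± 0.42 on the log2 scale. It passed the filter only through its level in conditioned medium. Below the filter, Ngp went the other way without overlap, with 22 counts in conditioned medium and 77 in control medium, and Mpo had 24 and 1. Ly6g and Elane were at or near 0. Of 8 T and NK cell markers Cd3e, Cd3g, Cd8a and Ncr1 had no count and Trac was not called (edgeR adjusted p = 0.51). Of 9 hepatoma markers 5, among them Hnf4a, Krt8 and Ttr, had no count, and Afp was at 1.42 ± 0.0833 FPKM in conditioned medium and 1.34 ± 0.0781 FPKM in control medium (edgeR adjusted p = 0.63).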
